A study of Mus musculus with 4 samples.

Results

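Genes for transmitters other than GABA and glycine were followed in amacrine cells sorted from mouse retina. They were the rows of the count table named Slc17a6, Slc17a7 and Slc17a8 (vesicular glutamate transporters), Slc18a1 and Slc18a2 (vesicular monoamine transporters), Slc18a3 and Chat (vesicular transport and synthesis of acetylcholine), Th and Ddc (synthesis of dopamine) and Nos1 (synthesis of nitric oxide), 10 of the 55471 gene rows. The retinas came from C57BL6 mice at postnatal days 6 to 7 that carried Gbx2-CreERT2-IRES-EGFP together with Ai9. The Gbx2 allele drives a tamoxifen-inducible Cre recombinase and the green protein EGFP, and Ai9 makes the red protein tdTomato wherever Cre has acted, so both fractions carry the same alleles. Flow cytometry divided tdTomato cells by GFP: the negative fraction is named cell type 1 by the submitters and the positive fraction cell type 2, with 750 to 2500 cells giving each RNA sample. The libraries are replicates 2 and 6 of the GFP-negative fraction (Neg2 and Neg6) and replicates 2 and 3 of the GFP-positive fraction (Pos2 and Pos3), n = 2 per fraction throughout. The submitters speak of 4 biological replicates drawn from 3 litters, each animal to give both fractions. Whether Neg2 and Pos2, which share a number, came from the same animal is not known here, and the tests treat the 4 libraries as independent. The labels used here give no time of tamoxifen. The fractions are those with and without GFP at the sort, not all Gbx2 cells.

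A neuron can release a transmitter from vesicles only if it has the membrane carrier that loads it. The glutamate carriers VGLUT1, VGLUT2 and VGLUT3 are encoded by Slc17a7, Slc17a6 and Slc17a8. In the retina VGLUT1 is known from photoreceptors and bipolar cells, VGLUT2 from ganglion cells and VGLUT3 from a particular glutamatergic amacrine type. Dopamine is made from tyrosine by tyrosine hydroxylase (Th) and aromatic amino acid decarboxylase (Ddc) and loaded by VMAT2 (Slc18a2), a set known from dopaminergic amacrine cells. Acetylcholine is made by Chat and loaded by VAChT (Slc18a3) in starburst amacrine cells. Nitric oxide is a gas made on demand by Nos1, with no vesicular carrier. The comparison of the fractions asks whether either of these amacrine populations carries such genes.

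Total counts per library were 41040667 to 44689917, so 3 counts, the level taken here as detected, equal 0.0631 to 0.0838 CPM, the usual depth-scaled count, here over the effective library size. Gbx2, the gene behind the sort, stood at 28.7 and 55.5 CPM in Neg2 and Neg6 and at 602 and 496 CPM in Pos2 and Pos3. All 15 markers in a pan-amacrine list were above 0 in every library, and their sum was 9200 and 16014 CPM in Neg2 and Neg6 and 6294 and 4122 CPM in Pos2 and Pos3. RNA of other retinal cells was present too: 16 rod photoreceptor markers summed to 10174 and 2799 CPM in Neg2 and Neg6 and to 11586 and 19568 CPM in Pos2 and Pos3. Neg6 had the highest amacrine and the lowest rod sum, and Pos3 the reverse. In such bulk samples, fewer cells of a type and less RNA per cell cannot be told apart.

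None of the 10 genes differed between the fractions by edgeR's quasi-likelihood test at an adjusted p of 0.05, against 198 of 17940 tested genes in the whole table (1.10%: 0.234% higher and 0.870% lower in GFP-positive cells). All 10 passed the filter on low counts. Calls over the whole table numbered 1 when Neg6 was left out and 5 when Pos3 was. At an unadjusted p under 0.05 there were 2, Th and Slc18a1, against 12.6% of all tested genes. DESeq2 and limma-voom also called 0 of the 10. By unadjusted p under 0.05, DESeq2 had 2 (Th and Slc18a1) and limma-voom 3 (Slc17a7, Th and Nos1). Of all 17940 tested genes, 2280 and 2056 were under 0.05 in these fits. CPM did not overlap between fractions for 6 of the 10 genes, against 43.8% of all tested genes. Slc17a7 and Slc18a1 had the higher values in Pos2 and Pos3 (22.5% of tested genes did), and Slc17a6, Slc18a2, Th and Nos1 the lower ones (21.3%). Log2 fold changes (GFP-positive minus GFP-negative) were positive for 5 and negative for 5, with a median of 0.42 against 0.04 over all tested genes. For 1 value over these 4 libraries, exact two-sided permutation has a smallest possible p of 0.33.

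By presence and absence, 6 of the 10 genes reached 3 counts in all 4 libraries and 9 in at least 3 of them, where 60.2% and 64.6% of 21974 protein-coding genes did so. Pos2 held all 10 genes. In Neg2, Ddc was not detected, with 0 counts, and in Neg6 Slc17a8 fell short, with 1 count. In Pos3, Slc17a8, Chat and Nos1 were each at 0 counts. A count of 0 has an exact Poisson upper limit of 3.69 counts (95%), which is 0.0776 CPM in Pos3 and 0.0882 CPM in Neg2. No gene was below 3 counts in both libraries of a fraction.

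Per exon length the 10 genes spanned a wide range of levels, and Slc17a7 stood apart. Its mean was 54.7 RPKM (CPM per kilobase of exon), followed by Slc18a2 at 2.97, Slc18a3 at 1.39, Slc17a6 at 1.03 and Th at 0.781 RPKM. The other means were 0.285 RPKM for Chat, 0.230 for Nos1, 0.226 for Slc18a1, 0.0979 for Ddc and 0.0827 for Slc17a8. The ranges of Slc17a7 and Slc18a2 over the 4 libraries did not overlap, from 11.7 to 89.5 and from 1.59 to 5.07 RPKM. Every other pair of neighbours in this order overlapped. Slc17a7 made up 87.4% and 56.5% of the summed RPKM of the 10 genes in Neg2 and Neg6, and 88.5% and 96.4% in Pos2 and Pos3. The other 9 genes together came to 7.96, 8.98, 8.12 and 3.30 RPKM in the same order.

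**Figure D1:**
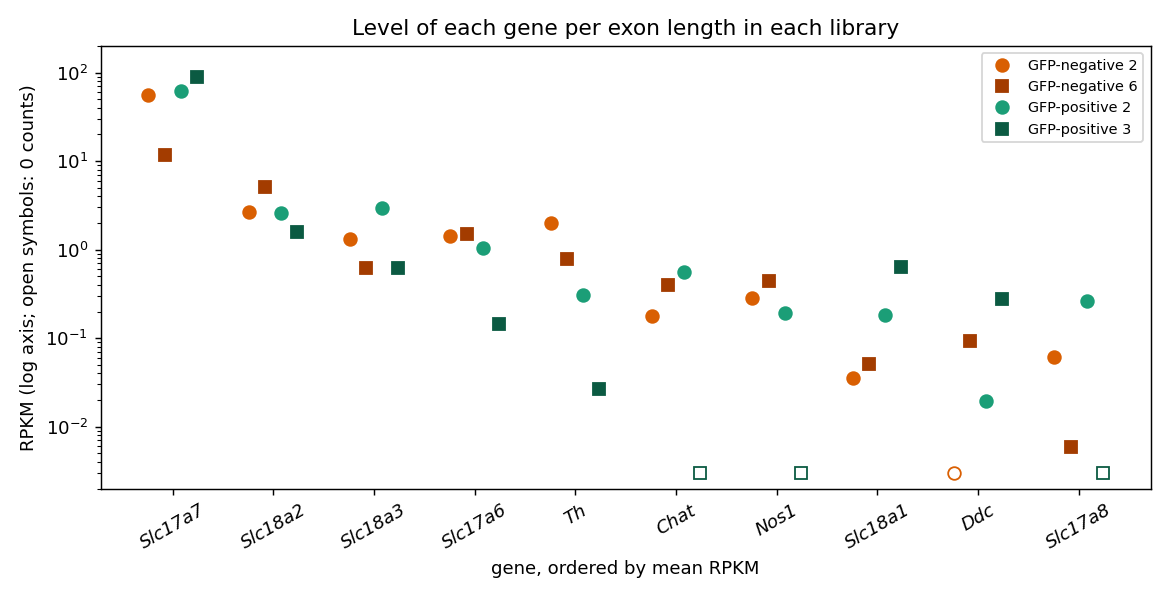
Level of each of the 10 genes per exon length (RPKM, log axis) in each of the 4 libraries, ordered by the mean; open symbols at the bottom mark 0 counts. Slc17a7 lies at 11.7 to 89.5 RPKM, above every value of the other genes, and Pos3 has 3 of the 4 open symbols.

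Slc17a7 (ENSMUSG00000070570, chromosome 7, 45163949 to 45176142, plus strand, GRCm38), which encodes VGLUT1, had 12509 and 2250 counts in Neg2 and Neg6 and 15350 and 22951 in Pos2 and Pos3. This was 299 and 62.8 CPM against 336 and 483 CPM. The fractions did not overlap, but Neg2 lay nearer to Pos2 than to its own fraction. By RPKM, Slc17a7 was above 77.9% of protein-coding genes in Neg6 and above 96.2% to 98.2% in the other libraries. The log2 fold change was 1.18 ± 0.62 (standard error; edgeR adjusted p = 0.492), a 2.26-fold difference of means. Without Neg2 it was 2.64 ± 0.49 and passed (edgeR adjusted p = 0.0408, in a fit that called 1.71% of 19678 genes), where the lone GFP-negative library is assumed to vary like the other fraction. Without Neg6 it shrank to 0.45 ± 0.42 (edgeR adjusted p = 0.9997).

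The level of Slc17a7 ran beside that of photoreceptor genes in these 4 libraries. It equalled 2.94% and 2.25% of the summed rod markers in Neg2 and Neg6 and 2.90% and 2.47% in Pos2 and Pos3. Relative to rod markers the fractions therefore overlapped. Against 10 cone markers, whose sums were 775, 174, 743 and 1471 CPM in the same order, it equalled 38.6%, 36.1%, 45.2% and 32.8%, which overlapped as well. Against 15 bipolar markers, a list that also holds genes of amacrine cells such as Gnao1, it was 18.4% and 5.55% in Neg2 and Neg6 and 18.2% and 20.3% in Pos2 and Pos3. Rod markers were all above 0 in every library, and 13 of 16 were higher in Pos2 and Pos3 (22.5% of all tested genes were). Whether photoreceptor or bipolar RNA accounts for Slc17a7 was not tested.

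**Figure D2:**
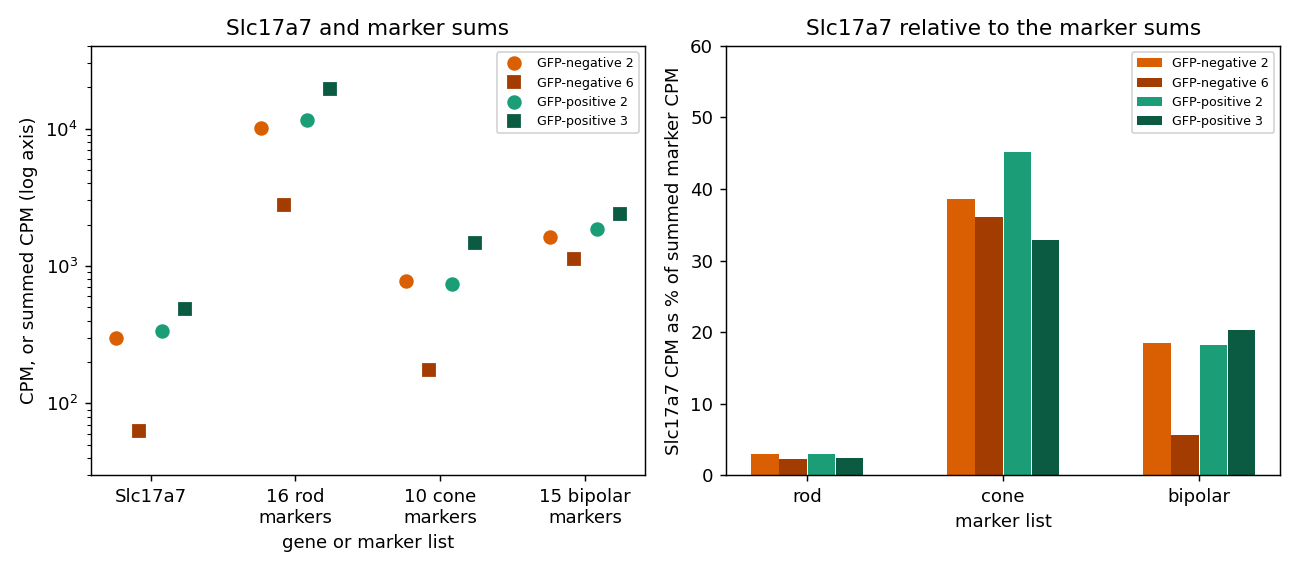
Left, CPM of Slc17a7 and summed CPM of rod, cone and bipolar markers (log axis) in each library; right, Slc17a7 CPM as a percentage of each marker sum (bars start at 0). Neg6 is lowest in all 4 columns on the left, while the ratio to rod markers stays between 2.25% and 2.94%.

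Among all tested protein-coding genes, those closest to Slc17a7 in centred log2 CPM over the 4 libraries were Otx2, a homeobox gene of photoreceptors and bipolar cells, Pcdh15, a photoreceptor and hair cell cadherin, and Ndrg1. Otx2 stood at 323, 71.1, 373 and 508 CPM in Neg2 and Neg6 and Pos2 and Pos3, a Euclidean distance of 0.080. Within a distance of 0.5 there were 250 of the 17940 tested genes, so this pattern was not particular to Slc17a7. The sequence before the RefSeq start site of Slc17a7 is shown because this is the gene of highest level, and because a binding motif of the photoreceptor factors CRX and OTX2 (TAATCC, either strand) could be looked for in it. The letters TAATCC occur in 6.25% of 32851 windows of 250 bases before RefSeq start sites (GRCm38.p6). They are not in this window, chr7:45163671-45163920, plus strand, printed in lower case with no capitals because no searched motif was found:
Slc17a7: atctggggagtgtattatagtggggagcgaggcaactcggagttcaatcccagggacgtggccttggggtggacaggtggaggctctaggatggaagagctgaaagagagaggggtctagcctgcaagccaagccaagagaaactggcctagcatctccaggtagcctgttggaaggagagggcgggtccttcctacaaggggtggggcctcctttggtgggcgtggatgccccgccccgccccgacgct

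Slc17a6 (ENSMUSG00000030500, chromosome 7, 51622006 to 51671119), which encodes VGLUT2, was counted in all 4 libraries at a modest level. It had 7.70 and 8.18 CPM in Neg2 and Neg6 and 5.64 and 0.778 CPM in Pos2 and Pos3. The GFP-negative libraries and Pos2 were close together, and Pos3 was 7.25-fold below its partner. Its log2 fold change of -1.31 ± 0.78 did not pass (edgeR adjusted p = 0.544). It was -0.50 without Pos3 and -3.37 ± 0.86 without Pos2 (edgeR adjusted p = 0.145 in the latter fit). The sum of 13 ganglion cell markers, Slc17a6 left out, was 802 and 974 CPM in Neg2 and Neg6 and 612 and 556 CPM in Pos2 and Pos3. These 13 include Isl1, which bipolar cells also express and which was lowest in Neg6 and highest in Pos3. Without Isl1 the sums of the fractions would lie further apart. Pou4f2, a defining ganglion cell factor, and Opn4 were the markers of that list with a 0 (Opn4 in Pos2 and Pos3, Pou4f2 in Pos3). Pou4f2 stood at 2.73, 2.15, 0.569 and 0 CPM in the order Neg2, Neg6, Pos2, Pos3. The part of ganglion cell RNA in the Slc17a6 values was not tested. The genes closest to Slc17a6 in pattern were Wdr62, Sstr2 and Vegfc, at distances of 0.072, 0.19 and 0.24, with 32 tested genes within 0.5.

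Slc17a8 (ENSMUSG00000019935, chromosome 10, 89574020 to 89621253), which encodes VGLUT3, was the lowest of the 10 genes per length. It had 12 and 1 counts in Neg2 and Neg6 and 57 and 0 counts in Pos2 and Pos3. Each fraction thus had a library with it and a library under 3 counts, and 57 counts in Pos2 were 1.25 CPM. The log2 fold change was 1.86 ± 1.60 (edgeR adjusted p = 0.685). Of 7 markers of the VGLUT3 amacrine type, Prdm8 and Pcdh20 were called lower in GFP-positive cells and 0 higher, while the median log2 fold change of the list was 0.96. Of the 7, 3 had higher and 2 lower values in both Pos2 and Pos3, against 22.5% and 21.3% of all tested genes. Calls over all tested genes were 0.870% lower and 0.234% higher. The list includes Slc17a8 itself.

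Of 16 other genes that make, take up or recycle glutamate, 15 were tested and 0 were called in either direction (median log2 fold change 0.02, against 0.04 over all tested genes). The highest per length were the aminotransferases Got1 (266 and 379 CPM in GFP-negative, 218 and 246 in GFP-positive libraries) and Got2, glutamate dehydrogenase (Glud1), and Slc1a7, a glutamate transporter known from photoreceptors and bipolar cells. Slc1a7 was at 93.1 and 18.0 CPM in Neg2 and Neg6 and 95.7 and 135 CPM in Pos2 and Pos3. Its order over the libraries was the same as that of Slc17a7.

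Slc18a2 (ENSMUSG00000025094, chromosome 19, 59260896 to 59296012), which encodes VMAT2, had the smallest ratio of highest to lowest CPM over the 4 libraries among the 10 genes. It had 13.9 and 26.5 CPM in Neg2 and Neg6 and 13.4 and 8.33 CPM in Pos2 and Pos3. The fractions did not overlap, but Neg2 and Pos2 differed by less than either fraction's replicates. On the log2 scale Slc18a2 differed by -0.89 ± 0.48 (edgeR adjusted p = 0.504). Its level per length, 2.65 and 5.07 against 2.57 and 1.59 RPKM, placed it above 53.3% to 66.0% of protein-coding genes. The genes closest in pattern were Slc39a6, Magee1 and Slc35e3, at distances of up to 0.052, among 732 tested genes within 0.5. An antisense gene, Gm29261, shares 111 exonic bases with Slc18a2 and had 0 to 8 counts.

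Th (ENSMUSG00000000214, chromosome 7, 142892752 to 142931128, minus strand), the rate-limiting enzyme of catecholamine synthesis, was higher in both GFP-negative libraries. It had 199 and 66 counts in Neg2 and Neg6 and 33 and 3 in Pos2 and Pos3, or 4.76 and 1.84 against 0.722 and 0.0631 CPM. The fractions did not overlap, and Pos3 was at the floor. The difference of means was 8.41-fold (3.30 ± 2.06 against 0.392 ± 0.466 CPM, SD). The log2 fold change was -3.10 ± 1.06 and did not pass after adjustment (edgeR adjusted p = 0.275). The spread within the GFP-positive fraction, 11.4-fold, was larger than the difference of means.

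Upstream of its RefSeq start, Th holds a cAMP response element (TGACGTCA, its own reverse complement), a site known from work on this promoter. It begins 45 bases before the start, and the same letters occur in 1.55% of the 32851 windows of 250 bases. Of the 10 genes 9 had a window, 12 windows in all, and Th was the 1 gene with this element; TAATCC was found before Nos1. The stretch from 200 to 20 bases before the start is shown with the element in capitals (chr7:142900015-142900195, minus strand, RefSeq, GRCm38.p6), since Th had the most negative log2 fold change of the 10, although it did not pass:
Th: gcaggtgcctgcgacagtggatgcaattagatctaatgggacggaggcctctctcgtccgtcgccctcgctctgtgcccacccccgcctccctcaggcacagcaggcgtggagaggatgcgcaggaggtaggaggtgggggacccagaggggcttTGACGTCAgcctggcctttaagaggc

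Ddc (ENSMUSG00000020182, chromosome 11, 11814101 to 11898144), the decarboxylase that follows Th, did not run with it. It had 0 and 15 counts in Neg2 and Neg6 and 4 and 59 in Pos2 and Pos3. The library with the most Th (Neg2) had no Ddc count, and the library with the most Ddc (Pos3) had 3 Th counts. On the log2 scale Ddc differed by 1.78 ± 1.55 (edgeR adjusted p = 0.692). Without Pos3 this turned to -1.14.

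Slc18a1 (ENSMUSG00000036330, chromosome 8, 69037711 to 69089235), which encodes VMAT1, the carrier known mainly from endocrine cells, had the largest positive difference. It had 8 and 10 counts in Neg2 and Neg6 and 45 and 163 counts in Pos2 and Pos3, or 0.191 and 0.279 against 0.984 and 3.43 CPM. The fractions did not overlap, with the highest value in Pos3. Means differed 9.38-fold (0.235 ± 0.0623 against 2.21 ± 1.73 CPM, SD), and the log2 fold change was 3.24 ± 1.14 (edgeR adjusted p = 0.280). Rod marker sums were also highest in Pos2 and Pos3, as were 11 markers of endothelium and pericytes when summed: 115 and 83.2 CPM in Neg2 and Neg6 and 459 and 470 CPM in Pos2 and Pos3, with 3, 1, 2 and 0 of the 11 at 0 counts. Most of that sum in Pos2 and Pos3 was Igfbp7, the 1 called gene of the list. Slc18a1 equalled 0.00188% and 0.00998% of the rod sum in Neg2 and Neg6 and 0.00849% and 0.0175% in Pos2 and Pos3. Relative to the summed endothelial and pericyte markers it was 0.166%, 0.336%, 0.215% and 0.730% in the same order. The part of such RNA in the Slc18a1 values was not tested. Slc18a1 overlaps Atp6v1b2 on the other strand without a shared exonic base; Atp6v1b2, a proton pump subunit, had 33624 and 44872 counts in Neg2 and Neg6 and 33761 and 28516 in Pos2 and Pos3, an order that differs from that of Slc18a1.

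Other genes of dopaminergic cells were not all counted where Th was. Nr4a2, the nuclear receptor of midbrain dopamine neurons, was abundant and fell in GFP-positive cells, from 362 and 708 CPM to 47.8 and 35.1 CPM (log2 fold change -3.69 ± 0.45, edgeR adjusted p = 0.0125). Leaving out Neg6, Pos2 or Pos3 ended that call (edgeR adjusted p = 0.0711, 0.0693 and 0.165). Slc6a3, the dopamine reuptake transporter, had 14 counts in Neg6 and 0 in the other libraries. Gch1, which makes the cofactor of Th, was at 0.693 and 6.81 CPM in Neg2 and Neg6 and 1.38 and 0.0210 CPM in Pos2 and Pos3. Dbh and Pnmt, which turn dopamine into noradrenaline and noradrenaline into adrenaline, had 21 and 24 against 15 and 0 counts and 166 and 298 against 31 and 0 counts. Over 16 genes of catecholamine synthesis, uptake and breakdown, 14 were tested and 0 called (median log2 fold change -0.59), with Qdpr, Pcbd1 and Slc29a4 among the highest per length. Pcbd1, which regenerates the cofactor, stood at 31.7 and 36.5 against 10.1 and 5.28 CPM (edgeR adjusted p = 0.0705).

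**Figure D3:**
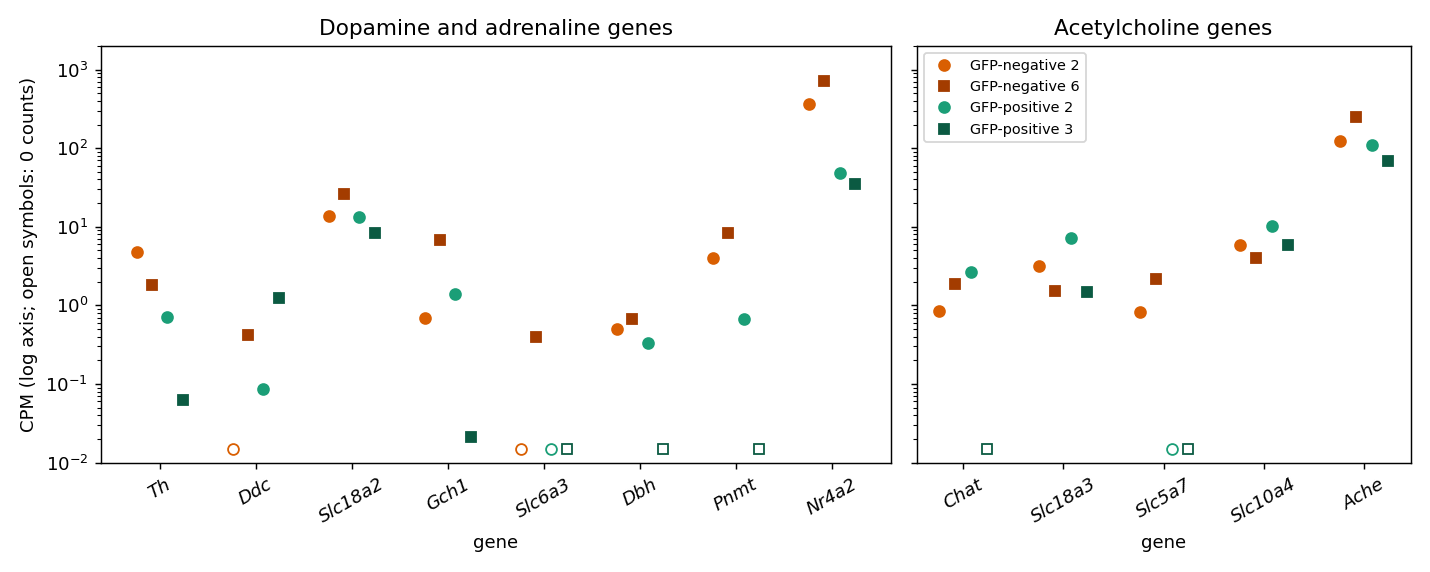
CPM (log axis) of genes for dopamine and adrenaline (left) and for acetylcholine (right) in each library; open symbols at the bottom mark 0 counts. Nr4a2 lies at 35.1 to 708 CPM, far above Th, Ddc and Slc6a3, and Slc5a7 is at 0 in Pos2 and Pos3.

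Chat (ENSMUSG00000021919, chromosome 14, 32408203 to 32465989, minus strand), which makes acetylcholine, and Slc18a3 (ENSMUSG00000100241, chromosome 14, 32462438 to 32464850, minus strand), which loads it into vesicles, form a nested locus. Slc18a3 is a single exon inside the first intron of 4 of 8 annotated Chat transcripts; the other 4 start downstream of it. The 2 genes share no exonic base, but reads of unspliced Chat RNA across that intron cannot be told apart from reads of Slc18a3. Chat had 35 and 67 counts in Neg2 and Neg6 and 121 and 0 in Pos2 and Pos3. The highest and the lowest value were both in GFP-positive cells, and the log2 fold change was -0.022 ± 1.23 (edgeR adjusted p = 0.998). Between the GFP-positive libraries the difference was 41.95-fold with the 0 counts of Pos3 set to 3.

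Slc18a3 was counted in all 4 libraries, with 133 and 54 counts in GFP-negative and 329 and 71 in GFP-positive replicates. Pos2 was the highest, as for Chat, and the other 3 libraries lay between 1.49 and 3.18 CPM. On the log2 scale Slc18a3 differed by 0.86 ± 0.86 (edgeR adjusted p = 0.738). Without Pos2 this turned to -0.68. Per exon length Slc18a3 was 7.41-fold and 1.57-fold above Chat in Neg2 and Neg6 and 5.30-fold above it in Pos2, and Chat was at 0 in Pos3. With the longest transcript as the length these ratios were 4.50, 0.955 and 3.22. The sequence just before the RefSeq start of Slc18a3 is shown because that start lies inside the Chat gene (chr14:32464851-32465000, minus strand, GRCm38.p6). Its 150 bases are 68.0% G or C, and neither searched motif is in the window, so no base is in capitals:
Slc18a3: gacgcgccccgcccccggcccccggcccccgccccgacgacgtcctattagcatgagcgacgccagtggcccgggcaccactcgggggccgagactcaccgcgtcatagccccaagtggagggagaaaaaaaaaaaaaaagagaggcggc

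The other cholinergic genes did not follow a single order either. Slc5a7, the choline carrier of starburst cells, named here after its values were seen, had 34 and 77 counts in Neg2 and Neg6 and 0 in Pos2 and Pos3. It was 23.02-fold lower there with the 0 counts set to 3 per library, but its test did not pass (edgeR adjusted p = 0.207). Of 11 genes for choline and acetylcholine handling, 10 were tested and 0 called (median log2 fold change 0.20). The most abundant per length were Acly, which supplies acetyl-CoA, Ache, which breaks acetylcholine down, the choline transporter Slc44a1 and the choline kinase Chka. Slc10a4, a vesicle protein of cholinergic neurons, stood at 5.93 and 3.99 CPM in the negative and 10.1 and 5.78 CPM in the positive fraction. Ache stood at 124 and 250 CPM in Neg2 and Neg6 and 110 and 68.6 CPM in Pos2 and Pos3. The sum of 9 starburst markers other than Chat and Slc18a3, 230 and 178 against 203 and 271 CPM, was mostly Isl1 in GFP-positive cells (131 and 224 CPM), a gene that bipolar and ganglion cells also express.

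Nos1 (ENSMUSG00000029361, chromosome 5, 117781032 to 117958840, plus strand), the neuronal nitric oxide synthase, was counted in 3 libraries and had 0 counts in Pos3. It had 131 and 178 counts in Neg2 and Neg6 and 98 and 0 in Pos2 and Pos3, or 3.13 and 4.97 against 2.14 and 0 CPM. The fractions did not overlap, and the GFP-positive replicates differed 34.0-fold with the 0 counts of Pos3 set to 3. The log2 fold change was -1.92 ± 1.04 (edgeR adjusted p = 0.501); it was -0.92 without Pos3 and -10.41 without Pos2. An antisense gene, Gm26995, shares 268 exonic bases with Nos1 and had 0 counts in every library.

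The list for nitric oxide and cGMP signalling held 17 genes, of which 15 were tested (median log2 fold change 0.06). In GFP-positive cells 3 were called lower and 0 higher, against 0.870% and 0.234% of all tested genes. By CPM, 6 of the 15 lay higher in both Pos2 and Pos3 and 6 lower, against 22.5% and 21.3% of all tested genes. Ddah1, which removes an endogenous inhibitor of nitric oxide synthases, fell from 335 and 394 CPM to 98.5 and 94.4 CPM (log2 fold change -1.92 ± 0.32, edgeR adjusted p = 0.0342). Prkg1, a cGMP-dependent kinase, fell from 64.7 and 64.5 CPM to 18.7 and 20.6 CPM (-1.72 ± 0.31, edgeR adjusted p = 0.0442). Pde1a, a calcium-dependent phosphodiesterase, fell from 9.63 and 8.71 CPM to 0.416 and 0 CPM (-5.47 ± 0.97, edgeR adjusted p = 0.0342). Prkg1 and Pde1a missed the threshold whichever of the 4 libraries was omitted, and Ddah1 passed in the fit without Neg2; their edgeR adjusted p ran from 0.0344 to 0.33 over those fits. All 3 also missed the threshold with no filter (edgeR adjusted p from 0.0506 to 0.0785) and in edgeR's older (legacy) fit (from 0.0827 to 0.281). In limma-voom, Prkg1 and Pde1a missed it (adjusted p = 0.0648 and 0.240), and Prkg1 also with plain library sizes (edgeR adjusted p = 0.0767). The most abundant others per length were Ddah2, the guanylyl cyclase subunits Gucy1a1 (386 and 526 against 202 and 120 CPM, edgeR adjusted p = 0.150) and Gucy1b1, and Pde9a. Of 4 markers of nitric oxide amacrine cells, the peptide gene Crh was called lower, from 199 and 665 CPM to 18.2 and 12.2 CPM (edgeR adjusted p = 0.0131), and 0 were called higher. These 4 include Nos1 itself. CPM of 3 of the 4 lay lower in both Pos2 and Pos3 and of 0 higher, against 21.3% and 22.5% of all tested genes. The share of nitric oxide amacrine cells in each fraction was not tested.

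**Figure D4:**
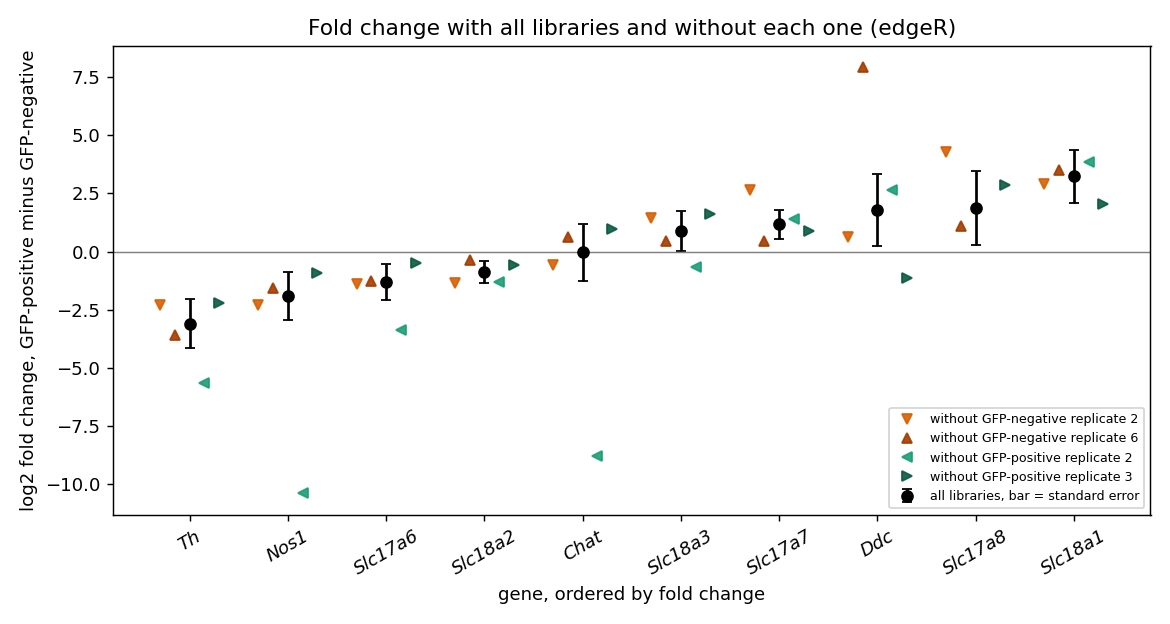
Log2 fold change (GFP-positive minus GFP-negative) of each of the 10 genes with all 4 libraries (black, bar = standard error) and with each library left out (coloured). Values for Chat, Ddc and Slc18a3 lie on both sides of 0 depending on the library left out, and Nos1 and Chat reach -10.41 and -8.81 without Pos2, when the lone GFP-positive library has 0 counts.

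Low genes had a wide spread between replicates. Among 3061 tested genes at a mean of 1 to 5 CPM, where Th, Chat, Nos1, Slc18a1 and Slc18a3 lie, the median fold between replicates was 1.83 in the GFP-negative and 1.84 in the GFP-positive fraction, and the 90th percentile 6.51 and 7.01 (0.1 CPM added). On that scale the GFP-positive replicates differed 27.5-fold for Chat and 22.4-fold for Nos1, beyond the 90th percentile. For Th the fold was 5.04, for Slc18a3 4.58 and for Slc18a1 3.25, all within it. Wide spread was not limited to low genes. Slc17a7 differed 4.75-fold between Neg2 and Neg6, where the 90th percentile at 100 to 1000 CPM was 1.91. Slc17a6 differed 6.54-fold between Pos2 and Pos3, where the 90th percentile at 5 to 20 CPM was 2.61. In the other fraction both genes were within the 90th percentile, and Slc18a2 was within it in both fractions. Of 862 protein-coding genes with 30 to 200 counts in each of the other 3 libraries, a range that holds Chat, Th and Nos1, 58 were at 0 in Pos3 (6.73%). The same share was 1.07% and 0.759% for Neg2 and Neg6 and 1.59% for Pos2.

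Set beside the inhibitory transmitter genes, the 9 genes other than Slc17a7 were mostly low. The GABA carrier Slc32a1 had a mean of 13.9 RPKM and the glycine transporter Slc6a9 11.97 RPKM, against 2.97 RPKM for Slc18a2, the next of the 10 genes after Slc17a7. These means are over all 4 libraries. The 6 comparator genes for GABA and glycine summed to 5223 and 10430 CPM in Neg2 and Neg6 and 2095 and 886 CPM in Pos2 and Pos3. Gad1 and Gad2, which make GABA, had means of 97.3 and 37.6 RPKM and were the 2 of 6 comparator genes called, both lower in GFP-positive cells (log2 fold changes of -3.62 and -3.10; edgeR adjusted p = 0.0230 and 0.0154). With a library left out, Gad1 passed in 1 of 4 fits and Gad2 in 2 of 4, with edgeR adjusted p from 0.0148 to 0.295 and from 0.0197 to 0.168, and neither passed in the legacy fit. The glycine transporter gene Slc6a5 was as low as the others, with a mean of 0.373 RPKM. Gad1, at 985 and 1766 CPM in Neg2 and Neg6 and 155 and 69.2 CPM in Pos2 and Pos3, stayed above Th, Chat and Nos1 per length in every library.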

How the data were processed

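RNA came from FAC-sorted dissociated retina, and libraries were made with Takara's SMART-Seq Ultra Low Input kit, per the labels' protocols. The authors deposited raw read counts per Ensembl gene; the submitters' processing notes list Trimmomatic, STAR 2.7.3a, MultiQC, limma and GRCm38 without roles. The counter, strand setting and multi-mapping rule: not given in the sources used here. The signal in another deposited table is called CPM in its header; 100% of its values were whole reads (within 0.01 reads) after division by a constant per library, and equal to the counts where shared. Run on those reads, edgeR called 200 genes.

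Groups came from the labelled fluorescence. Counts were compared with edgeR 4.0.16 (R 4.3.3): TMM scaling, filterByExpr (minimum count 10, total 15), robust glmQLFit (legacy off) and glmQLFTest, Benjamini-Hochberg over 17940 genes, call at adjusted p under 0.05. There were 2 residual degrees of freedom. The fit was also run on counts simulated with the dispersions of these data, with 50 genes changed at each fold. It called 0% of those changed 2-fold, 36% at 4-fold and 60% at 8-fold and at 16-fold. The changed genes were drawn at random from all tested genes. The share recovered among genes as low as most of the 10 was not tested. A gene that was not called may therefore still differ. The standard error was taken as |log2 fold change|/√F. Gene lengths are unions of exons in GENCODE M21 (GRCm38), which held 55230 of the 55471 IDs; 27 symbols that had become dates were looked up by ID. Without molecular identifiers, reads are not independent molecules, and the intervals and floors describe counting error only. The members and gene lists were chosen with earlier results of these data known. Named genes are all members, each called gene and up to 4 of the most abundant per pathway list, and the 3 closest in pattern for members over 5 CPM; other genes named were picked after their values were seen, and some genes of the lists are not reported here. Replicates within a fraction are taken as separate animals from the series text; otherwise p-values measure technical spread. Alternatives used other scalings, filters, DESeq2 1.42.0, limma-voom (limma 3.58.1), a legacy fit, recovered reads and omitted libraries or photoreceptor markers; the legacy fit and the recovered reads were chosen after seeing the data.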

Additional observations from a re-analysis of the deposited data

How the results depend on the processing

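Over 14 alternative fits, 0 of the 10 genes passed in any fit with all 4 libraries, and leaving out a library gave 0 to 1 called higher (Slc17a7, without Neg2) and 0 lower. Slc17a6, Slc17a7, Slc18a1, Slc18a2, Th and Nos1 kept their direction in every fit that gave them a value. Slc17a8 was at -0.075 in limma-voom, Chat at 0.013 with upper-quartile scaling and 0.14 with plain library sizes. Without single libraries, Chat ran from -8.81 to 0.98 (0.64 without Neg6 and 0.98 without Pos3), Slc18a3 from -0.68 to 1.60 and Ddc from -1.14 (without Pos3) to 7.93; the cause was not tested. Genes called over the whole table (42 higher, 156 lower) numbered 24 and 82 with no filter, 209 and 585 in DESeq2, 17 and 75 in limma-voom, 13 and 35 in the legacy fit, and 0 to 106 and 1 to 230 with a library left out (0 and 1 without Neg6, 4 and 1 without Pos3, 19 and 89 without Pos2). Scaling by library size alone moved the median of all genes from 0.04 to 0.21. Detected members per library numbered 7 to 10 at 3 counts, 6 to 9 at 10 counts and 5 to 7 at 1 CPM. With the longest transcript as length, the mean of Slc17a7 was 95.8 RPKM, and Slc18a1 and Nos1 changed places. Under the stricter filter 3 of the 10 genes had a value. No paired analysis was possible because the fractions share a single replicate number, which leaves no residual degrees of freedom.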

Other observations

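The genes that make or take up serotonin and histamine were low or at 0 in both fractions. Slc6a4, the serotonin transporter, had 0 counts in all 4 libraries, and Hdc, which makes histamine, had 2 counts in Neg6 and 0 elsewhere. Tph1, which starts serotonin synthesis, stood at 3.90 and 1.31 CPM in Neg2 and Neg6 and 2.41 and 1.14 CPM in Pos2 and Pos3. Hnmt, which inactivates histamine, was more abundant at 38.3 and 91.5 against 19.2 and 14.95 CPM (edgeR adjusted p = 0.108). Of 8 genes in this list 4 were tested and 0 called. Slc18b1, a vesicular polyamine transporter gene related to the VMATs, stood at 23.5 and 37.8 against 23.9 and 28.5 CPM; its mean of 8.72 RPKM compares with 0.226 RPKM for Slc18a1.

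Among 16 genes for regulators of transmitter identity in neurons, 7 were tested and Nr4a2 was the 1 called, lower in GFP-positive cells. Over all tested genes, 0.870% were called lower. The other tested genes of the list lay the other way. CPM of 6 of the 7 were higher in both Pos2 and Pos3 and of 1 lower, against 22.5% and 21.3% of all tested genes. The median log2 fold change of the list was 1.52, against 0.04 over all tested genes. Fev, Foxa2, Lmx1a and Gbx1 were among those at 0 in every library. Isl1, a factor of cholinergic amacrine cells that bipolar and ganglion cells also express, stood at 98.3 and 33.04 against 131 and 224 CPM, and Lhx4, known from cones and bipolar cells, at 18.3 and 5.39 against 23.3 and 58.0 CPM (edgeR adjusted p = 0.293 and 0.285). In both genes Neg6 was the lowest and Pos3 the highest library, as for Slc17a7 and the summed rod markers. Rest, a repressor of neuronal genes, stood at 14.3 and 12.3 against 19.3 and 33.4 CPM.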
